A study of Homo sapiens with 6 samples.

Results

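Keratin genes were taken from the gene count table as the protein-coding genes named KRT followed by a number and at most 1 letter. This gave 55 keratin genes of 58735 genes in the table, after 11 pseudogenes whose names fit the same pattern were left out. Of the 55, 28 were type I keratins, 26 were type II keratins, and KRT222, which had no count in any library, belonged to neither type. RNA was sequenced from untreated, non-irradiated colorectal cancer cells in 6 libraries, 3 labelled CNOT7 knockdown and 3 labelled as the control. CNOT7 is a deadenylase subunit of the CCR4-NOT complex, which shortens the poly(A) tails of mRNAs. The knockdown was a stable line made with shRNA from a lentiviral vector. The cells are SW480 by the labels and HCT116 by the paper. The sources do not say which shRNA was used for which knockdown library, and nothing says that the 3 libraries of a group came from separate cultures, so the p-values measure only the spread between these libraries.

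Keratins are the intermediate filament proteins of epithelial cells. A filament is built from heterodimers of a type I (acidic) and a type II (basic to neutral) keratin, so the types are usually made in step. KRT8 and KRT18, with KRT19 and KRT20, are the keratins of simple epithelia such as the colon, KRT5 with KRT14 forms the filaments of basal cells in stratified epithelia, and a large group of hair and root sheath keratins is known from the hair follicle. The type I genes lie in a cluster on chromosome 17 and the type II genes in a cluster on chromosome 12, where KRT18 is the type I exception.

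The libraries held 23788451 to 29104872 counts. CNOT7 levels, as CPM (gene counts scaled to a common library size with TMM factors), were 169, 191 and 176 in the control libraries and 43.4, 47.2 and 38.6 in the knockdown libraries, a log2 fold change of -2.05 (SE 0.0734). Of the colorectal epithelial markers, EPCAM at 212 and 220 CPM and CDX2 at 41.4 and 42.5 CPM (control and knockdown means) were present in every library. CDH17 was low, at 0.566 and 0.915 CPM, and CDX1 and LGALS4 were near 0. The 8 markers summed to 296 to 301 CPM in the control and 326 to 336 CPM in the knockdown libraries. Of 6 tested, 3 rose (beside 13.3% of all genes tested): CDH1 (23.6 to 33.5 CPM), VIL1 (19.9 to 32.7 CPM) and GPA33 (0.0703 to 0.552 CPM). GPA33 passed the low-count filter through the knockdown libraries alone and so had to be higher there. Fibroblast markers (2 of 7 tested, 0 called, sum 9.07 to 10.9 CPM in the control and 10.4 to 11.95 CPM in the knockdown libraries, COL3A1 and DCN at 0) and leukocyte markers (3 of 8 tested, sum 2.67 to 3.99 and 4.24 to 5.14 CPM, FCGR3A at 0 and PTPRC at 0 in the control mean) were low. The part of these marker differences in the keratin results was not tested. In bulk RNA, fewer cells of a type and less RNA per cell cannot be told apart.

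Of the 55 keratin genes, 49 had at least 1 count in some library, 28 passed the filter on low counts and were tested, and 25 reached 1 CPM in at least 3 libraries. The 28 tested genes were 14 of the 28 type I and 14 of the 26 type II keratins, and only 12 of them, 5 type I and 7 type II, averaged at least 10 CPM. The 27 genes that did not pass had at most 43 counts over all 6 libraries. Among them were KRT14, the usual type I partner of KRT5, with 4 counts in all, KRT16 with 43, KRT1 with 6, and KRT20, a keratin of differentiated intestinal epithelium, with 7.

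A few genes made up nearly all of the keratin RNA. Levels between genes are compared as RPKM, the TMM-scaled CPM divided by the deposited gene length in kilobases, given as mean ± SD of 3 libraries. In the control libraries KRT5 was highest at 815 ± 26.8 RPKM, before KRT18 at 629 ± 11.6, KRT8 at 400 ± 21.8, KRT19 at 308 ± 13.9 and KRT23 at 126 ± 1.52 RPKM. These 5 genes held 95.2% of the summed keratin RPKM in the control and 95.1% in the knockdown libraries. KRT80 (34.0 RPKM) and KRT81 (23.1 RPKM) followed, and the remaining tested keratins lay between 0.106 and 11.8 RPKM in the control mean. From KRT5 down to KRT10, the 11th in rank, each gene's 3 control values lay wholly above those of the next. Of the 27 neighbouring pairs in the control order, 13 overlapped, among them all pairs from KRT37 (1.34 RPKM) down to KRT31 (0.430 RPKM).

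The order at the top depended on the length used. The deposited length of KRT8 (6881 bases) covers the exons of all its transcripts, whereas its principal transcript in GENCODE has 2126 bases. With the principal transcript of each gene, the control levels were 1382 ± 45.5 RPKM for KRT5, 1297 ± 23.9 for KRT18 and 1293 ± 70.6 for KRT8, so KRT8 and KRT18 differed by less than their SD. In the knockdown libraries the order on this scale was KRT18 (1266 ± 79.4 RPKM), KRT8 (1167 ± 57.9 RPKM) and KRT5 (1153 ± 54.6 RPKM), with KRT8 and KRT5 within their SD.

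With CNOT7 knockdown, 8 of the 28 tested keratins rose and 9 fell (quasi-likelihood test of edgeR, p-values adjusted by Benjamini-Hochberg over all 17574 genes tested, threshold 0.05). Over all genes tested, 13.3% rose and 11.9% fell. Higher were KRT74, KRT6B, KRT75, KRT6C and KRT2 of type II and KRT32, KRT35 and KRT36 of type I. Lower were KRT5, KRT8, KRT80, KRT81, KRT86 and KRT7 of type II and KRT19, KRT23 and KRT10 of type I. Thus 11 of 14 tested type II and 6 of 14 tested type I keratins were called. The median log2 fold change was 0.06 over the 28 tested keratins, 0.06 over type I and 0.11 over type II, beside 0.0039 over all genes tested. A gene that passed the low-count filter only through the group where it is high had to differ. These counts and medians therefore describe the tested genes and not all 55. KRT84 passed through the knockdown libraries alone, and KRT2 through them and 1 control library. Without KRT84, the median over type II would be the value of KRT71 (-0.11). The median over all tested keratins would then be that of KRT18 (-0.03). Leaving out any other gene of the same set with a positive log2 fold change would give the same values, since the middle values differ in sign. The sign of both medians is therefore not firm. The 3 knockdown values did not overlap the 3 control values for 17 of the tested keratins, and for 38.8% of all genes tested.

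Among these few genes, the direction of the calls differed by level. The counts in this paragraph stand beside 13.3% higher and 11.9% lower of all genes tested, at any level. Shares among genes of a like level are not given here. Of the 6 keratins with a mean of at least 100 CPM, 5 fell and KRT18 was not called, and none rose. Of the 19 between 1 and 100 CPM, 7 rose and 4 fell, and of the 3 below 1 CPM, 1 rose. When the trend of fold change with abundance was removed (cyclic loess offsets), KRT8 and KRT19 were no longer called, which left 3 of the 6 (KRT5, KRT23 and KRT80). By known site of expression, hair and root sheath keratins gave 5 higher and 2 lower of 13 tested (median log2 fold change 0.49, KRT84 included). Stratified epithelial keratins gave 3 higher and 2 lower of 9 tested (median -0.08). Simple epithelial keratins gave 3 lower of 4 tested and none higher (median -0.16). The remaining group, KRT23 and KRT80, fell.

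Among the simple epithelial keratins, KRT8 (ENSG00000170421), the main type II keratin of the colon, had 2860, 2579 and 2810 CPM in the control and 2507, 2347 and 2589 CPM in the knockdown libraries. The groups overlapped, since knockdown library 3 lay above control library 2. KRT8 fell by 0.15 on the log2 scale (SE 0.0510, adjusted p = 0.0414), and the call was lost in 4 of the 6 refits on 5 libraries, with adjusted p up to 0.156. Its type I partner KRT18 (ENSG00000111057) had 2062, 1988 and 2026 CPM in the control and 1980, 1853 and 2101 CPM in the knockdown libraries. Its groups overlapped, and its log2 fold change was -0.03 (SE 0.0496, adjusted p = 0.672). KRT8 and KRT18 lie next to each other and share 525 exonic bases on opposite strands, 7.63% of KRT8 and 16.3% of KRT18, and without the strand setting of the counting, reads there cannot be told apart.

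KRT19, a type I keratin without a tail domain, had 752, 687 and 721 CPM in the control and 643, 598 and 668 CPM in the knockdown libraries. The knockdown values all lay below the control values. KRT19 fell by 0.18 on the log2 scale (SE 0.0536, adjusted p = 0.0212), and this call was also lost in 4 of the 6 refits on 5 libraries, with adjusted p up to 0.0979. KRT7, a type II keratin of ducts and glands, was low, at 2.37, 2.32 and 1.96 CPM in the control and 1.42, 0.761 and 1.68 CPM in the knockdown libraries. Its groups did not overlap, and it fell by 0.78 on the log2 scale (SE 0.259, adjusted p = 0.0358). The KRT7 call was lost in 5 of the 6 refits on 5 libraries, and its log2 fold change was -0.51 without knockdown library 2, where it was lowest.

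KRT5 (ENSG00000186081) had the most keratin counts, with 3589, 3368 and 3534 CPM in the control and 2992, 2759 and 3004 CPM in the knockdown libraries. All control values lay above all knockdown values. KRT5 fell by 0.26 on the log2 scale (SE 0.0471, adjusted p = 5.55e-04). KRT23, a type I keratin found in gastrointestinal tumours, had 366, 369 and 360 CPM in the control and 297, 313 and 289 CPM in the knockdown libraries. Again the groups were apart, and KRT23 fell by 0.28 on the log2 scale (SE 0.0504, adjusted p = 4.65e-04). KRT10, a type I keratin of the suprabasal epidermis, had 13.9, 12.04 and 12.4 CPM in the control and 9.47, 8.12 and 9.74 CPM in the knockdown libraries. The groups did not overlap, and KRT10 fell by 0.49 on the log2 scale (SE 0.108, adjusted p = 0.00297).

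The largest falls were in a set of neighbouring type II genes on chromosome 12. KRT81 (ENSG00000205426), a keratin of the hair cortex, had 50.5, 39.8 and 43.2 CPM in the control and 13.3, 12.6 and 17.7 CPM in the knockdown libraries. Every knockdown value was below every control value, and the log2 fold change of -1.61 (SE 0.114, adjusted p = 2.04e-08) was the largest fall of the 28. KRT86, also a hair cortex keratin, had 9.84, 9.72 and 7.18 CPM in the control and 5.57, 4.17 and 5.37 CPM in the knockdown libraries. The groups were apart here as well, and KRT86 fell by 0.82 on the log2 scale (SE 0.148, adjusted p = 5.55e-04). KRT81 and KRT86 are close copies: of the 50-base words in their transcripts, 43.7% of KRT81 and 37.5% of KRT86 also occur in other genes, mostly in the other of the pair, so their separate values are uncertain. The sum of both was 53.4 ± 6.04 CPM in the control and 19.6 ± 3.18 CPM in the knockdown libraries. KRT80, a type II keratin found in many epithelia, shares almost no words with other genes (0.364%). It had 154, 140 and 150 CPM in the control and 98.9, 92.7 and 103 CPM in the knockdown libraries, with no overlap, and fell by 0.59 on the log2 scale (SE 0.0600, adjusted p = 1.62e-06).

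The type II keratins that rose were of the root sheath and of stratified epithelia. KRT75 (ENSG00000170454), a keratin of the companion layer of the hair follicle, had 2.65, 2.79 and 2.83 CPM in the control and 5.71, 6.31 and 6.45 CPM in the knockdown libraries. All knockdown values were above all control values, and its log2 fold change was 1.16 (SE 0.144, adjusted p = 1.39e-05). KRT74, an inner root sheath keratin, had 30.2, 29.2 and 30.0 CPM in the control and 48.0, 46.9 and 48.0 CPM in the knockdown libraries. The libraries of each group were close together and the groups were far apart, with a log2 fold change of 0.68 (SE 0.0666, adjusted p = 1.14e-06). Its neighbour KRT71, of the same root sheath, had 21.6, 20.4 and 19.5 CPM in the control and 18.8, 18.8 and 19.6 CPM in the knockdown libraries, and was not called (log2 fold change -0.11, SE 0.0823, adjusted p = 0.377). KRT2, a keratin of the upper epidermis, had 0.389, 0.215 and 0.199 CPM in the control and 0.603, 0.689 and 0.907 CPM in the knockdown libraries. The groups did not overlap and the log2 fold change was 1.43 (SE 0.415, adjusted p = 0.0173), but the call was lost in 3 of the 6 refits on 5 libraries, with adjusted p up to 0.0860.

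KRT6B, KRT6C and KRT6A are stress- and wound-inducible keratins of stratified epithelia and are near copies of each other, with 47.1%, 44.4% and 32.1% of their 50-base words found in other genes. KRT6B had 27.4, 27.1 and 26.2 CPM in the control and 43.4, 41.9 and 41.9 CPM in the knockdown libraries. The groups were far apart, and the log2 fold change was 0.66 (SE 0.0689, adjusted p = 2.41e-06). KRT6C had 0.739, 0.903 and 0.758 CPM in the control and 1.49, 2.17 and 1.65 CPM in the knockdown libraries. It was higher in every knockdown library, with a log2 fold change of 1.14 (SE 0.268, adjusted p = 0.00450), and 35.0% of its words occur in KRT6B, which was far higher. KRT6A had 3.42, 2.97 and 3.23 CPM in the control and 5.43, 3.04 and 3.66 CPM in the knockdown libraries, with overlap, and was not called (log2 fold change 0.33, SE 0.196, adjusted p = 0.238). The sum of the 3 genes was 30.9 ± 0.679 CPM in the control and 48.2 ± 1.81 CPM in the knockdown libraries. Their usual type I partners were low: KRT16 was not tested, and KRT17 was not called (2.07 and 1.54 CPM, log2 fold change -0.44, SE 0.259, adjusted p = 0.237).

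The type I keratins that rose were all hair keratins. KRT36 (ENSG00000126337) had 1.63, 1.81 and 2.15 CPM in the control and 4.65, 4.49 and 4.47 CPM in the knockdown libraries. The groups were apart, with a log2 fold change of 1.28 (SE 0.170, adjusted p = 2.77e-05). KRT35, a keratin of the hair matrix and cortex, had 1.95, 2.49 and 2.31 CPM in the control and 5.71, 4.75 and 5.003 CPM in the knockdown libraries. Again the knockdown values lay above all control values, at a log2 fold change of 1.197 (SE 0.163, adjusted p = 3.78e-05). KRT32, of the hair cuticle, had 5.99, 5.25 and 3.75 CPM in the control and 8.27, 8.12 and 8.999 CPM in the knockdown libraries, without overlap, and its log2 fold change was 0.76 (SE 0.148, adjusted p = 0.00106). KRT32, KRT35 and KRT36 share at most 1.47% of their 50-base words with other genes.

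**Figure D1:**
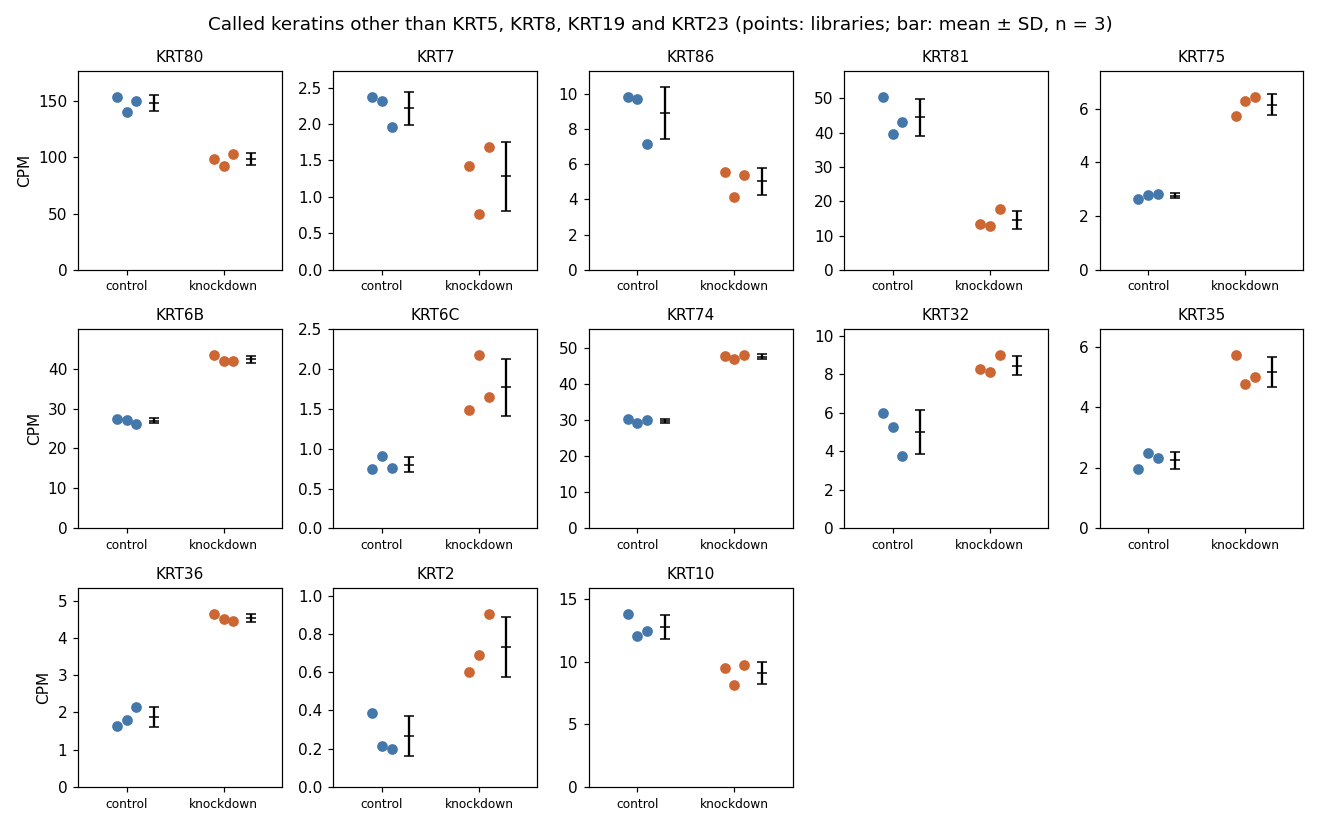
CPM per library for the 13 called keratins other than KRT5, KRT8, KRT19 and KRT23, each on its own linear axis from 0. Points are libraries and the bar is the mean ± SD of 3, and in all 13 panels the points of the 2 groups do not overlap.

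Of the other tested keratins, KRT13 had 11.8, 13.5 and 12.4 CPM in the control and 10.2, 10.3 and 11.9 CPM in the knockdown libraries. Its groups overlapped by knockdown library 3, and the log2 fold change of -0.21 was not called (SE 0.104, adjusted p = 0.146). KRT15, KRT31, KRT37, KRT38 and KRT39 averaged 0.687 to 3.45 CPM in the control and 0.832 to 3.29 CPM in the knockdown libraries, and none was called, with log2 fold changes from -0.08 for KRT15 to 0.49 for KRT38. KRT37 is uncertain, since 45.2% of its 50-base words occur in other genes, most of them in an antisense gene. The hair keratin KRT84 was the lowest in counts of those whose groups did not overlap, at 0.156, 0.301 and 0.279 CPM against 0.497, 0.652 and 0.537 CPM. With a log2 fold change of 1.19 (SE 0.432) its adjusted p of 0.0527 was just outside the threshold, and that of KRT8, at 0.0414, just inside.

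Summed over the members, the means of both types were lower with knockdown. The type I sum was 1109, 1060 and 1082 RPKM in the control and 1017, 963 and 1062 RPKM in the knockdown libraries. Knockdown library 3 lay just above control library 2, so these groups overlapped, and the means differed by -6.45%. The type II sum was 1353, 1251 and 1325 RPKM in the control and 1143, 1061 and 1161 RPKM in the knockdown libraries. It did not overlap between the groups, and the means differed by -14.4%. The share of type I in both sums was 45.1%, 45.9% and 44.9% in the control and 47.1%, 47.6% and 47.8% in the knockdown libraries, a difference of 2.19 percentage points. All knockdown shares were above all control shares. No test was made of the share, because its members were chosen with results known. Without KRT8 and KRT18 the difference was 1.11 points, and with the length of the principal transcript it was 1.99 points.

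Within the sums, KRT5 was 62.2% of the type II sum in the control and 60.6% in the knockdown libraries, and KRT8 was 30.5% and 32.1%. KRT18 was 58.1% and 60.6% of the type I sum, KRT19 28.4% and 26.9%, and KRT23 11.6% and 10.2%. The ratio of KRT18 to KRT8 was 1.58 ± 0.0614 in the control and 1.70 ± 0.0271 in the knockdown libraries on the RPKM scale. The keratins that rose most, such as KRT36 and KRT75, add little to either sum, since they stayed below 3 RPKM. All keratins together took 0.953 ± 0.0389% of the counts in the control and 0.874 ± 0.0511% in the knockdown libraries.

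The called genes were also placed by position within the clusters. The chromosome 12 cluster runs over 784 kb from KRT80 to KRT18 (chr12:52168996-52952901, GRCh38) and holds 17 tested genes, 15 of them keratins. The chromosome 17 cluster runs over 970 kb (chr17:40654665-41624842) and holds 24 tested genes, 13 of them keratins. From KRT80 to the end of KRT86, all 6 tested genes within 140 kb had a log2 fold change below 0, and KRT80, KRT7, KRT86 and KRT81 fell. The others were the pseudogene KRT87P and the antisense gene AC121757.1. The span of KRT86 covers KRT81, KRT87P and AC121757.1, and KRT81, KRT86 and KRT87P share sequence, so these are not separate signals. Farther on, from KRT84 to KRT6A, all 5 tested genes within 115 kb were above 0, and KRT75, KRT6B and KRT6C rose. KRT84 passed the low-count filter through the knockdown libraries alone, so its direction was built into its being tested. KRT6A, KRT6B and KRT6C share sequence and are not separate signals. On chromosome 17, all 6 tested genes from KRT38 to KRT36, within 56.1 kb, were above 0, and KRT32, KRT35, KRT36 and the pseudogene KRT43P rose (KRT43P 2.55 to 4.25 CPM, log2 fold change 0.74, adjusted p = 0.00546). After KRT6A on chromosome 12 the directions were mixed: KRT5 and KRT8 fell, KRT74 and KRT2 rose, and KRT71 and KRT18 were not called. On chromosome 17 outside KRT38 to KRT36, every called gene fell (KRT10, KRT23, KRTAP3-1, KRTAP2-3, KRTAP2-4 and KRT19). Of these, KRTAP2-4 passed the low-count filter through the control libraries alone. The stretches were picked after the values were seen, so they are a description and were not tested.

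Promoters of 34 of the 55 keratins (38 start sites) were found in RefSeq for GRCh38.p14, each running from 250 bases upstream to 50 bases downstream of the start. The 100 bases upstream of the start are shown for the type I genes KRT38 to KRT36 on chromosome 17, and for KRT75, KRT74 and KRT5 of the chromosome 12 cluster, to show the same upstream region for genes that rose (KRT32, KRT35, KRT36, KRT74 and KRT75), for KRT5, which fell and was highest in counts, and for KRT38, which was not called. All lie on the minus strand and read 5′ to 3′ toward the start, at chr17:41440984-41441083 for KRT38, chr17:41467387-41467486 for KRT32, chr17:41481152-41481251 for KRT35, chr17:41489911-41490010 for KRT36, chr12:52434372-52434471 for KRT75, chr12:52520395-52520494 for KRT5 and chr12:52573844-52573943 for KRT74. Capitals mark NATAAA beginning 40 to 20 bases upstream of the start, which includes the TATA box TATAAA, and KRT32 had none there.
KRT38: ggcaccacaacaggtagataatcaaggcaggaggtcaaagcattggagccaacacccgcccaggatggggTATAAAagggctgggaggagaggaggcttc
KRT32: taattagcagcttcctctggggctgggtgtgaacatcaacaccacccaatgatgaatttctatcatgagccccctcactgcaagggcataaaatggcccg
KRT35: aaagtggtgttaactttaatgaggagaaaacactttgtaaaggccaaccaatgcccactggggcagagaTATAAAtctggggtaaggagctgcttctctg
KRT36: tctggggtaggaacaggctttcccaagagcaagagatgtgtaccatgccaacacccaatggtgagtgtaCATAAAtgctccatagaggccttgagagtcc
KRT75: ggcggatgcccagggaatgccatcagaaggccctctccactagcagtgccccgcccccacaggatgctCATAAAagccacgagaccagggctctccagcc
KRT5: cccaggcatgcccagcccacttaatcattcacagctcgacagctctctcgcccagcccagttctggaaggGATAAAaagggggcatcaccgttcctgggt
KRT74: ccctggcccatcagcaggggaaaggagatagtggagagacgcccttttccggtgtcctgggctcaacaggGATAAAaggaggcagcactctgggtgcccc

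NATAAA in this window, read on the gene's strand and chosen after the sequences were seen, was found in 25 of 38 keratin promoters (65.8%) and in 4.65% of all 34943 promoters. Among promoters of tested keratins it was found in 4 of 6 of the higher genes, 2 of 3 of the lower genes and 5 of 6 of the genes not called. TATAAA itself, anywhere in the 300 bases on either strand, was found in 21 of 38 keratin promoters (55.3%) and in 11.6% of all. Among the promoters of tested keratins in the table it was found in 1 of 6 of the higher genes (KRT35), 1 of 3 of the lower genes (KRT10) and 6 of 6 of the genes not called. The other 13 tested keratins have no promoter here, and the difference was not tested. The GC box GGGCGG was found in 15.8% of keratin promoters and 44.9% of all, and the E-box CANNTG in 86.8% and 68.7%. TGANTCA, the AP-1 motif, was not in these windows for any keratin and was in 7.72% of all promoters. The median GC content of the keratin promoters was 45.7%, against 58.7% for all.

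Of 94 keratin-associated protein genes, which encode matrix proteins of the hair shaft, 4 were tested and 3 fell: KRTAP2-3 (3.34 to 1.51 CPM, log2 fold change -1.13), KRTAP3-1 (1.86 to 0.698 CPM, -1.41) and KRTAP2-4 (0.711 to 0.185 CPM, -1.91), beside 11.9% of all genes tested. KRTAP2-4 passed the filter through the control libraries alone, so a fall was built into its being tested. Of 147 keratin pseudogenes, 11 were tested and KRT43P alone was called. KRT8P12 was the highest of them, at 10.8 CPM in the control and 12.2 CPM in the knockdown libraries, and was not called (adjusted p = 0.217).

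Among the other intermediate filament genes, 10 of 16 were tested, 1 rose and 3 fell (beside 13.3% higher and 11.9% lower of all genes tested), with a median log2 fold change of -0.01. VIM, the filament of mesenchymal cells, fell from 265 to 225 CPM (log2 fold change -0.24, SE 0.0544, adjusted p = 0.00381). The nuclear lamin genes LMNA (-0.23) and LMNB2 (-0.25) fell as well, though their groups overlapped, and DES, the filament of muscle cells, rose from 4.97 to 8.66 CPM (0.80, SE 0.122). This count was 2 under cyclic loess offsets.

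Genes whose proteins anchor keratin filaments moved both ways. Of 17 tested of 18, 4 rose and 5 fell (beside 13.3% higher and 11.9% lower of all genes tested), with a median log2 fold change of -0.09. The desmosomal genes DSC2 (0.86), PKP1 (0.67) and DSG2 (0.32) and the epiplakin gene EPPK1 (0.50) rose. The desmosomal gene PKP2 (-0.37) and the cytolinker genes EVPL (-0.41), DST (-0.31) and PLEC (-0.24) fell, as did TCHP (-0.37), which encodes a keratin-binding protein. PKP1 and PKP2, which encode plakophilins that tie desmosomes to the filaments, thus moved in opposite directions, from 13.003 to 20.8 CPM and from 213 to 165 CPM.

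Of 18 genes for kinases, chaperones and enzymes that modify or turn over keratins, all were tested, 1 rose and 3 fell (beside 13.3% higher and 11.9% lower of all genes tested), with a median of -0.09. TGM2, a transglutaminase that crosslinks proteins, fell from 2041 ± 90.5 to 1246 ± 48.4 CPM (log2 fold change -0.71, SE 0.0490, adjusted p = 1.57e-08). DNAJB6, a chaperone that binds KRT18, fell (-0.43), SQSTM1, an autophagy adaptor, fell (-0.18), and the kinase gene MAPK14 rose (0.31). Of 25 regulators of keratin transcription, 21 were tested, 6 rose and 2 fell (against the same 13.3% and 11.9%), with a median of 0.04. Those that rose included ETS2 (0.68), FOXA2 (0.65), ELF3 (0.56), EHF (0.45) and CEBPB (0.27), and ETS1 (-0.37) and SP3 (-0.19) fell, ETS2 from 137 to 219 CPM and ETS1 from 203 to 157 CPM. Of 26 genes of the cornified envelope, the crosslinked shell of epidermal cells, 7 were tested, KLK7 rose (0.38) and PI3 (-1.25), TGM1 (-0.81) and TCHH (-0.79) fell, with a median of -0.14. These counts of 1 higher and 3 lower also stand beside 13.3% and 11.9% of all genes, and with DESeq2 only 2 of the 7 were called. The medians stand beside 0.0039 over all genes tested.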

How the data were processed

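The libraries were made from total RNA isolated with TRIzol, using an Illumina kit. The authors deposited raw counts per gene for 6 libraries, with no normalization. The submitters' processing notes name CASAVA 1.8, fastp, HISAT2 2.0.5, featureCounts 1.5.0-p3, DESeq2 1.20.0 and GRCh38. The strand setting and the handling of reads with several matches are not given in the sources used here. Gene positions and lengths of all 55 keratins matched GENCODE release 29. The number of columns not used was 0.

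The counts of all genes were fitted with edgeR 4.0.16 in R 4.3.3 (filterByExpr, TMM, glmQLFit and glmQLFTest, 3 control against 3 knockdown libraries, Benjamini-Hochberg adjustment over 17574 genes, threshold 0.05, no minimum fold). The SE came from the fold change and the F statistic. The steps were tested on simulated data. Alternatives were DESeq2 1.42.0, RLE factors, other filters, a replicate block, cyclic loess offsets and each library left out. The length of the principal transcript was added after the data were seen. Shared words of 50 bases were counted over all annotated transcripts. Tables and plots used Python 3.11.15, pandas 2.3.3, numpy 2.4.6 and matplotlib 3.10.9.

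The genes named were CNOT7, every keratin that passed the filter, list members past the threshold (at most 6 of each list by size of change) and the highest pseudogenes. KRT14, KRT16, KRT1, KRT20, KRT222, the cell type markers, and called anchor genes and regulators beyond 6 a list were named besides, after their values were seen. Some genes of the lists are not reported here. The keratins and lists were chosen with earlier results of these data known. Totals of 23788451 to 29104872 counts and 3 libraries per group set the precision, which the SE gives. No library was a copy of another.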

Additional observations from a re-analysis of the deposited data

How the results depend on the processing

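Under the alternatives, 7 to 9 keratins rose and 6 to 9 fell, and 13 of the 17 called keratins were called in every alternative and every fit without 1 library. The 4 that were not are KRT8, KRT19, KRT7 and KRT2. KRT8 was lost with at least 10 counts in every library (adjusted p = 0.0563) and under cyclic loess offsets (0.448), and KRT19 under cyclic loess offsets (0.212). The log2 fold change of KRT18 reversed to 0.0497 under cyclic loess offsets. Leaving out 1 library, it ranged from -0.0845 to 0.00992 (without knockdown library 2), that of KRT15 from -0.252 to 0.205 (above 0 without control library 1 or knockdown library 2), and that of KRT37 from -0.0892 (without control library 1) to 0.324. KRT38 was called without control library 2 (adjusted p = 0.0417). The cause was not tested.

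The type I share differed by 1.11 points without KRT8 and KRT18 and by 2.01 to 2.48 points in the fits without 1 library. The count of other intermediate filament genes called, 4, was 2 under cyclic loess offsets and 2 to 4 without 1 library. That of cornified envelope genes, 4, was 2 with DESeq2 and 2 to 3 without 1 library. Samples with the same number were not treated as pairs in the main fit. Their deviations correlated at 0.0228, 0.153 and -0.0153, and those of samples with different numbers at -0.151 to 0.132. These values do not settle whether the libraries were paired. With the replicate block, 9 keratins rose and 9 fell, KRT84 became called (adjusted p = 0.0486), and 10 in place of 4 of the kinase, chaperone and turnover genes were called. Calls also increased over all 17574 genes tested, with 3202 higher and 3306 lower under the block, in place of 2329 and 2095. The added calls are therefore not particular to these genes. Counts near 1 CPM (KRT2, KRT84, KRT6C, KRT7) rest on few reads, and their folds are imprecise.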
